A study of Homo sapiens with 12 samples.

Results

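HCT116 and SW480 are human colon cancer cell lines, and both were stably transfected with a plasmid for CD44v6, the splice variant of the hyaluronan receptor CD44 that holds variable exon v6. The comparison described here asks which genes responded to CD44v6 overexpression (CD44v6-OE) in one line and not in the other, or in opposite directions. It is the difference between the lines in the CD44v6-OE effect, (SW480 CD44v6-OE minus SW480 parental) minus (HCT116 CD44v6-OE minus HCT116 parental), and rests on 8 of the 12 libraries of the series. The groups were SW480 CD44v6-OE, SW480 parental, HCT116 CD44v6-OE and HCT116 parental, with 2 libraries each. The 4 libraries of CD44s-OE cells, which carry the standard isoform, entered only where named. The transfected cells were selected with Geneticin and, by the column names of the count table, sequenced as pools. Parental cells served as controls and no library was labelled as carrying an empty vector, so effects of the plasmid, of selection and of CD44v6 cannot be told apart. RNA was polyadenylated RNA from cells in standard culture medium. Nothing in the labels says that the 2 libraries of a group came from separate cultures, so the p-values measure the spread between these libraries, which may be technical.

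CD44 binds hyaluronan at the cell surface, and its v6-containing isoforms are known as coreceptors of MET and as markers of colon cancer stem cells. Type I interferons bind a cell surface receptor whose signaling switches on interferon-stimulated genes through a promoter element called the ISRE. NFkB, which TNF and pattern-recognition receptors activate, drives chemokines, inhibitors of apoptosis and its own inhibitors. Many antiviral sensors and effectors are themselves interferon-stimulated, and their basal level varies among tumor lines.

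The 8 libraries held 43102156 to 52811889 counts, in which each read of a pair was counted, and 23601 to 26072 genes had a count. A gene was taken as not detected at or under 6 counts (3 read pairs) in each library of a line. CD44 itself was not higher in the libraries labelled CD44v6-OE. It had 133 and 145 CPM (counts scaled to library depth) in SW480 CD44v6-OE against 186 and 161 CPM in SW480 parental. In HCT116 it had 501 and 505 CPM in CD44v6-OE against 536 and 537 CPM in parental. In each line both CD44v6-OE libraries thus lay below both parental ones, without a call (-0.32 log2 in SW480 and -0.09 log2 in HCT116). Counts per gene do not resolve isoforms, and the study analyzed CD44v6 in CD44v6-OE cells of both lines by RT-qPCR and western blot. CD44v6-OE is used below as the name on the label. CD44-AS1, annotated on the other strand within the CD44 locus, had 154 and 177 counts in SW480 CD44v6-OE against 1 and 0 in SW480 parental, and 97 and 119 counts in HCT116 CD44v6-OE against 0 in both HCT116 parental libraries. As strand was not used in the counting as far as the sources tell, reads of CD44 and of CD44-AS1 cannot be told apart there. Whether reads of the plasmid were counted at CD44 or at CD44-AS1 was not tested. The difference between the lines was not called for either gene (CD44 -0.22 ± 0.17 log2, adjusted p = 0.71, and CD44-AS1 -1.60 ± 1.46 log2, adjusted p = 0.78, ± SE, edgeR). Errors after ± are standard errors throughout.

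One library stood apart. Genes that define HCT116 against SW480 (100 genes at 5 CPM or more in both HCT116 parental libraries and at 6 counts or fewer in both SW480 parental libraries) stood at a median of 2.53% of their HCT116 parental level in SW480 CD44v6-OE 1, where 89 of 100 were above 6 counts. In SW480 CD44v6-OE 2 they stood at a median of 0.355%, with 29 above 6 counts. The converse set of 154 SW480-defining genes stood at medians of 0.0583% and 0.135% of the SW480 parental level in HCT116 CD44v6-OE, against 0.0845% and 0.14% in HCT116 parental. In the parental libraries of the other line such shares were capped by the choice of genes, at 6 counts or fewer there. For each SW480-only gene named below that was abundant in HCT116, the share of its HCT116 parental level is given in both SW480 CD44v6-OE libraries. The source of these reads was not tested. The replicates of SW480 parental also differed more than those of the other groups, with 257 of 9359 well-measured genes over 2-fold apart, against 28 in SW480 CD44v6-OE, 1 in HCT116 CD44v6-OE and 33 in HCT116 parental. The colon epithelium markers summed to 6634 to 18840 CPM in all 8 libraries. Of the other lists, 3 of 8 fibroblast, 4 of 8 leukocyte, 2 of 6 endothelial and 4 of 6 neuron markers had enough counts to be tested. PTPRC, DCN and CDH5, defining markers of leukocytes, fibroblasts and endothelium, were not among them. The tested leukocyte markers summed to 3.88 and 4.71 CPM in SW480 CD44v6-OE against 1.88 and 2.79 CPM in SW480 parental, and to 1.06 and 1.76 CPM in HCT116 CD44v6-OE against 0.698 and 1.01 CPM in HCT116 parental. The fibroblast markers, mostly COL1A1, summed to 3.88 and 5.15 CPM in SW480 CD44v6-OE against 2.09 and 3.65 CPM in SW480 parental, and to 30.5 and 33.9 CPM in HCT116 CD44v6-OE against 13.5 and 18.9 CPM in HCT116 parental. The endothelial markers summed to 2.12 CPM at most, and the part of these levels in the results was not tested.

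In total 18844 genes were tested with edgeR's quasi-likelihood test, and calls required over 1.5 log2 in either direction with p, adjusted by Benjamini and Hochberg's method over all genes, under 0.1. The difference between the lines was called for 122 genes. The SW480 effect was higher for 53 genes (0.281% of those tested) and lower for 69 (0.366%). Within the lines, CD44v6-OE was called higher than parental for 137 genes (0.727%) and lower for 2 (0.0106%) in SW480, and higher for 173 genes (0.918%) and lower for 11 (0.0584%) in HCT116. The median over all genes was 0.014 log2 for the difference, 0.016 for the SW480 effect and -0.000 for the HCT116 effect. The calls depended on single libraries. They were 15 higher and 36 lower without SW480 CD44v6-OE 1, 160 and 64 without SW480 CD44v6-OE 2, 187 and 159 without SW480 parental 1, and 152 and 201 without SW480 parental 2. Without HCT116 CD44v6-OE 1 or 2 they were 14 and 32 or 11 and 33, and without HCT116 parental 1 or 2 they were 28 and 52 or 25 and 54.

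**Figure D1:**
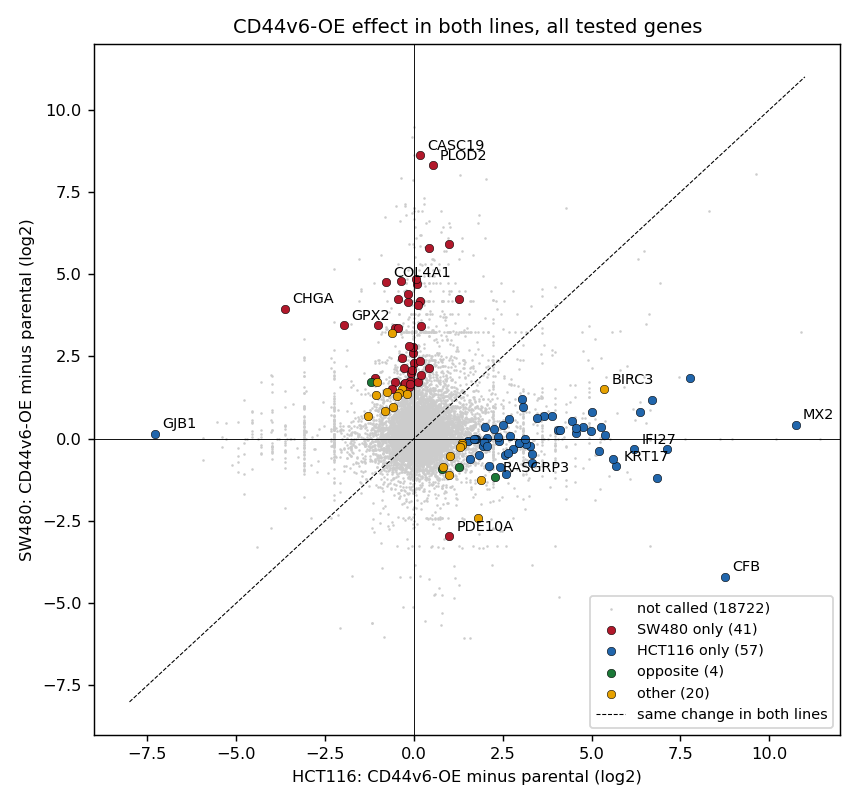
CD44v6-OE minus parental in SW480 (vertical axis, log2) against the same in HCT116 (horizontal axis, log2) for each of the 18844 tested genes, with the 122 called genes colored by how they responded. Blue points lie along the horizontal axis and red points along the vertical one, and 4 green points lie in the quadrants of opposite sign.

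Most called genes moved in one line. A response was assigned to one line where the gene was called in the difference, was called within that line in the matching direction and was not called in the other. Of the 122 genes, 56 were higher with CD44v6-OE in HCT116 only, 40 were higher in SW480 only, 1 was lower in HCT116 only (GJB1), 1 was lower in SW480 only (PDE10A, named after its values were seen), 4 moved in opposite directions, and 20 were called in the difference without fitting either class. The median effects of the 56 HCT116-only genes were 0.00 log2 in SW480 and 3.14 log2 in HCT116, and those of the 40 SW480-only genes were 3.09 log2 in SW480 and -0.11 log2 in HCT116. All 122 had library differences that did not overlap between the lines, as did 26.7% of all genes tested. For the 122 this was nearly set by their being called in these libraries, so it adds no support. In the other line, 2 of the 56 and 1 of the 40 were not detected. Over the 8 fits that left out a library, 28 to 52 of the 56 and 9 to 39 of the 40 were still called in the difference, the lowest in both without HCT116 CD44v6-OE 1. Without SW480 CD44v6-OE 1 they were 30 of the 56 and 12 of the 40. With the HCT116 share subtracted, as described below, all 56 were still called. That step only lowers counts of SW480 CD44v6-OE, which moves these differences further in the called direction, so it is no check of them.

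The parental levels of the classes ran in opposite directions. Of the 56 HCT116-only genes, 45 were higher in SW480 parental than in HCT116 parental, 34 of them past the call thresholds, against 1 called lower. Of the 40 SW480-only genes, 34 were lower in SW480 parental than in HCT116 parental, 33 of them called, against 4 called higher. Over all genes tested, 16.2% were called higher and 12.9% lower in SW480 parental than in HCT116 parental. These parental libraries also enter the difference, so the counts describe the genes and are no test. For the HCT116-only genes, HCT116 CD44v6-OE stood above both SW480 parental libraries in 33 of 56 and below both in 13. For the SW480-only genes, SW480 CD44v6-OE stayed below both HCT116 parental libraries in 28 of 40 and stood above both in 11.

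Interferon-stimulated genes made up the largest group of the HCT116-only response among the lists used. Of 46 type I interferon-stimulated genes tested, 16 were called with a lower effect in SW480 and 0 with a higher one, against 0.366% and 0.281% of all genes. Over all genes tested, CD44v6-OE was called higher for 0.918% in HCT116 and 0.727% in SW480. Of the 46, 31 were called higher and 0 lower in HCT116, and 3 were called higher and 0 lower in SW480. The 3 genes called in SW480 were also called in HCT116. The median effect over the 46 genes was 0.26 log2 in SW480 and 3.20 log2 in HCT116, and the median difference was -2.30 log2 (-2.65 with genes that had a group at 0 set to their bound). Both HCT116 CD44v6-OE libraries stood above both parental ones for 45 of the 46 genes, and both SW480 CD44v6-OE libraries did so for 22. Over all genes tested, this held for 25.8% in HCT116 and 21.8% in SW480. The 16 called genes were MX2, IFI27, OAS2, BST2, OAS1, IFIT3, IFI6, CMPK2, DDX58, EPSTI1, ISG15, IFIH1, IRF7, PARP9, MX1 and HERC6, with differences between -10.31 and -1.77 log2. Their effects ran from -0.75 to 0.82 log2 in SW480 and from 1.75 to 10.74 log2 in HCT116. Over the 8 fits that left out a library, 11 to 19 of the 46 were called, the lowest without HCT116 CD44v6-OE 1 and 13 without SW480 CD44v6-OE 1. In a fit of all 12 libraries, where the CD44s-OE groups share the estimate of spread, only 2 were called.

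One set of these genes was higher in SW480 parental than in HCT116 parental cells. Of the 16 called genes, 7 were called higher in SW480 parental than in HCT116 parental. MX2, a GTPase that blocks the nuclear entry of viral genomes, lies on chromosome 21 from 42733926 to 42781320 (hg19) and showed the widest gap of the 16. It had 4.19 and 4.78 CPM in SW480 CD44v6-OE against 3.17 and 3.49 CPM in SW480 parental, and 4.41 and 4.28 CPM in HCT116 CD44v6-OE against 0 CPM in both HCT116 parental libraries. The SW480 groups lay close together, and HCT116 CD44v6-OE stood at their level, at least 37.8-fold higher than 6 counts per parental library would allow. The fitted difference was -10.31 ± 0.77 log2 (adjusted p = 0.00022), whose size depends on the prior count because one group was at 0.

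IFI27 encodes a small mitochondrial protein that is among the most inducible interferon targets. It had 41.0 and 37.9 CPM in SW480 CD44v6-OE against 50.5 and 48.3 CPM in SW480 parental, and 44.5 and 43.6 CPM in HCT116 CD44v6-OE against 0.51 and 0.679 CPM in HCT116 parental. HCT116 CD44v6-OE therefore stood within the range of the SW480 libraries, and the difference was -6.53 ± 0.22 log2 (adjusted p = 1.5e-07). BST2 encodes tetherin, which holds budding virions at the membrane. It showed the same order, with 30.5 and 24.6 CPM in SW480 CD44v6-OE against 40.9 and 29.9 CPM in SW480 parental, and 29.0 and 28.8 CPM in HCT116 CD44v6-OE against 0.736 and 0.815 CPM in HCT116 parental (difference -5.58 ± 0.28 log2, adjusted p = 5.5e-06). OAS2 and OAS1, neighbors on chromosome 12, make the 2-5A signal that activates RNase L. OAS2 had 6.32 and 8.35 CPM in SW480 CD44v6-OE against 7.29 and 14.96 CPM in SW480 parental, and 6.78 and 7.38 CPM in HCT116 CD44v6-OE against 0.0755 and 0.213 CPM in HCT116 parental. Its groups overlapped in SW480 and were far apart in HCT116 (difference -6.20 ± 0.61 log2, adjusted p = 0.0011). OAS1 had 13.4 and 10.3 CPM in SW480 CD44v6-OE against 9.18 and 4.33 CPM in SW480 parental, and 39.1 and 41.2 CPM in HCT116 CD44v6-OE against 0.189 and 0.795 CPM in HCT116 parental. OAS1 thus went past the SW480 level in HCT116 CD44v6-OE (difference -5.54 ± 0.73 log2, adjusted p = 0.029, held in 5 of the 8 fits that left out a library).

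A second set was not called between the parental lines and stood highest in HCT116 CD44v6-OE. IFIT3, which binds viral RNA together with other IFIT proteins, had 3.39 and 2.44 CPM in SW480 CD44v6-OE against 2.64 and 2.79 CPM in SW480 parental, and 90.3 and 89.9 CPM in HCT116 CD44v6-OE against 1.74 and 2.64 CPM in HCT116 parental. The SW480 groups overlapped, the parental lines differed by 0.32 log2 without a call (adjusted p = 0.24), and the difference in effect was -5.26 ± 0.31 log2 (adjusted p = 9.8e-06). IFI6, an antiviral membrane protein, had 10.9 and 8.53 CPM in SW480 CD44v6-OE against 7.47 and 9.69 CPM in SW480 parental, and 200.5 and 225 CPM in HCT116 CD44v6-OE against 7.96 and 9.91 CPM in HCT116 parental. Its parental levels were alike (-0.06 log2, adjusted p = 0.81) and its effect differed by -4.40 ± 0.25 log2 (adjusted p = 9.8e-06). ISG15, the ubiquitin-like modifier, and DDX58, the sensor RIG-I, were looked at after their values were seen. ISG15 had 62.8 and 57.8 CPM in SW480 CD44v6-OE against 83.2 and 50.6 CPM in SW480 parental, and 905.5 and 840.2 CPM in HCT116 CD44v6-OE against 87.5 and 108.9 CPM in HCT116 parental. DDX58 had 4.58 and 4.69 CPM in SW480 CD44v6-OE against 3.65 and 4.13 CPM in SW480 parental, and 104.5 and 107.1 CPM in HCT116 CD44v6-OE against 5.81 and 6.95 CPM in HCT116 parental. For 12 of the 16 called genes the mean of HCT116 CD44v6-OE was above that of SW480 parental.

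**Figure D2:**
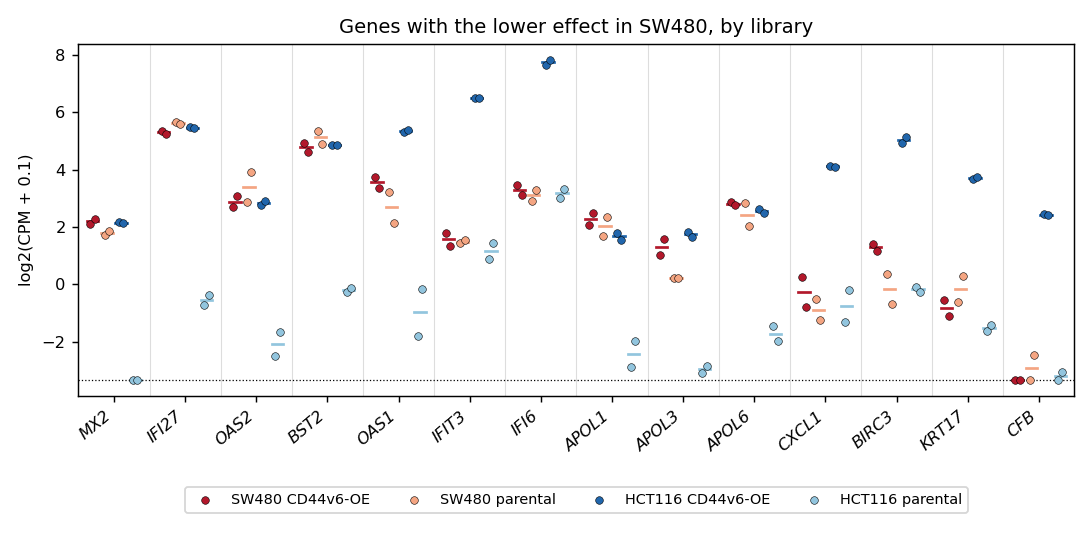
Level of 14 named genes with a lower effect in SW480, as log2 of CPM plus 0.1, with 1 point per library and a bar at the mean of each group; the dotted line marks 0 CPM. HCT116 parental lies lowest or level with SW480 for most of them, as for IFI27 at 0.51 and 0.679 CPM. HCT116 CD44v6-OE lies near or above the SW480 libraries, and for some genes under part of them. One of these is APOL1, at 3.33 and 2.85 CPM against 4.13 and 5.45 CPM in SW480 CD44v6-OE.

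Fewer interferon gamma-type genes were called. Of 19 tested, 3 were called with a lower effect in SW480 and 0 with a higher one, against 0.366% and 0.281% of all genes. CD44v6-OE was called higher for 10 in HCT116 and 1 in SW480, against 0.918% and 0.727% of all genes. The median effect over the list was 0.22 log2 in SW480 and 2.02 log2 in HCT116. In the fit of all 12 libraries 1 was called, and 5 were called when SW480 parental 1 was left out. The 3 were APOL3, APOL1 and APOL6, apolipoprotein L genes of 1 cluster on chromosome 22, of which APOL1 is known for lysing trypanosomes. APOL1 had 4.13 and 5.45 CPM in SW480 CD44v6-OE against 3.12 and 5.05 CPM in SW480 parental, and 3.33 and 2.85 CPM in HCT116 CD44v6-OE against 0.0377 and 0.155 CPM in HCT116 parental (difference -4.75 ± 0.63 log2, adjusted p = 0.0076). APOL6 had 7.15 and 6.74 CPM in SW480 CD44v6-OE against 7.02 and 3.95 CPM in SW480 parental, and 6.02 and 5.5 CPM in HCT116 CD44v6-OE against 0.264 and 0.155 CPM in HCT116 parental (difference -4.42 ± 0.49 log2, adjusted p = 0.0023). Both were at the SW480 level in HCT116 CD44v6-OE and at or near the detection limit in HCT116 parental. APOL3 had 184 and 164 counts in HCT116 CD44v6-OE against 1 and 2 in HCT116 parental, a ratio of 114 with a 95% counting interval of 23.3 to 710. Of 16 antigen presentation genes, 1 was called, PSMB10, an immunoproteasome subunit, with 9.17 and 11.2 CPM in SW480 CD44v6-OE against 12.3 and 8.88 CPM in SW480 parental, and 5.51 and 3.98 CPM in HCT116 CD44v6-OE against 1.7 and 1.63 CPM in HCT116 parental. Its call (difference -1.57 ± 0.36 log2, adjusted p = 0.097) held in 1 of the 8 fits that left out a library.

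Promoters of these genes were read for the letters of the ISRE, since they moved together. The search window was the RefSeq promoter of 300 bases, 250 before and 50 after the start (GRCh38.p14), and the core searched was GAAANNGAA on both strands. It was present in 8 of the 12 called type I interferon-stimulated genes that had a promoter in the table (66.7%), in 24 of 36 such promoters over the whole list (66.7%) and in 8.29% of all 27303 promoters. Among promoters of tested genes the share was 6.38%. The called members held it as often as the list as a whole, so the letters did not set them apart within it. MX2 and OAS2 had no promoter in the table, and no match was found in the window of OAS1. Windows of 60 bases around the matches in 4 of the genes described above are shown, 5′ to 3′ on the strand of the gene, with the matches in capitals.
IFI27 (chr14:94110609-94110668, plus strand): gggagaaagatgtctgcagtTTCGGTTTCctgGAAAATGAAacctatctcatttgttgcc
BST2 (chr19:17405724-17405783, minus strand): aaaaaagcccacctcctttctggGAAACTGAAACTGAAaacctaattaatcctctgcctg
IFIT3 (chr10:89327833-89327892, plus strand): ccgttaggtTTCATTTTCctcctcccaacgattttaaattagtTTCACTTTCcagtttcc
IFI6 (chr1:27672263-27672322, minus strand): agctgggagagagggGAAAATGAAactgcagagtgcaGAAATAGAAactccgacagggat
IFI27 and BST2, which were called higher in SW480 parental than in HCT116 parental, and IFIT3 and IFI6, which were not, each held a pair of matches in the window shown. A match is a description of the letters and says nothing of binding in these cells.

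NFkB and TNF response genes were the other list with several HCT116-only members. Of 31 tested, 5 were called with a lower effect in SW480 and 0 with a higher one, against 0.366% and 0.281% of all genes. CD44v6-OE was called higher for 9 in HCT116 and 1 in SW480, against 0.918% and 0.727% of all genes. The median effect over the list was 0.18 log2 in SW480 and 1.24 log2 in HCT116. The 5 were CXCL1, BIRC3, MAP3K8, TNFAIP3 and NFKBIZ, and 2 or 3 of the list were called without HCT116 CD44v6-OE 1 or 2. A fit of all 12 libraries called 2 as well, and leaving out SW480 parental 2 called 10. CXCL1, a chemokine that draws neutrophils, had 1.11 and 0.48 CPM in SW480 CD44v6-OE against 0.604 and 0.319 CPM in SW480 parental, and 17.4 and 17.1 CPM in HCT116 CD44v6-OE against 0.302 and 0.776 CPM in HCT116 parental. It was low in both parental lines and separated in HCT116 (difference -4.19 ± 0.71 log2, adjusted p = 0.032). BIRC3 encodes cIAP2, an inhibitor of apoptosis in the TNF receptor complex. It had 2.56 and 2.16 CPM in SW480 CD44v6-OE against 1.18 and 0.519 CPM in SW480 parental, and 30.0 and 35.2 CPM in HCT116 CD44v6-OE against 0.849 and 0.737 CPM in HCT116 parental. BIRC3 was higher with CD44v6-OE in both lines by its adjusted p, by 1.5 ± 0.32 log2 in SW480 (adjusted p = 0.072) and by 5.36 ± 0.33 log2 in HCT116 (adjusted p = 7.9e-06), and the sizes differed by -3.85 ± 0.45 log2 (adjusted p = 0.0032).

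MAP3K8, the kinase TPL2 that links NFkB to ERK, followed the other parental pattern, with 10.5 and 8.53 CPM in SW480 CD44v6-OE against 10.6 and 11.7 CPM in SW480 parental, and 6.25 and 5.52 CPM in HCT116 CD44v6-OE against 1.74 and 1.34 CPM in HCT116 parental. Its level in HCT116 CD44v6-OE stayed under that of SW480 (difference -2.16 ± 0.32 log2, adjusted p = 0.013). The promoters of all 5 called genes held the letters of the NFkB site, against 16 of 31 over the list (51.6%) and 5.72% of all promoters. The window around the match nearest the start site is shown for 2 of them, with the matches in capitals, one from a gene not called between the parental lines and one from a gene called higher in SW480 parental.
CXCL1 (chr4:73869289-73869348, plus strand): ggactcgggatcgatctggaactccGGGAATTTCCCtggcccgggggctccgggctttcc
MAP3K8 (chr10:30433967-30434026, plus strand): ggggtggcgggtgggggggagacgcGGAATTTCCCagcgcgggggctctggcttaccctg
The first printed match began 79 bases before the start site in CXCL1 and 29 bases before it in MAP3K8. Among the chemokines, CXCL1 was the 1 called in the difference. Of 14 chemokine genes tested, 7 were called higher with CD44v6-OE in HCT116 and 0 in SW480, against 0.918% and 0.727% of all genes. Their median difference was -2.75 log2, with medians of 0.72 log2 in SW480 and 4.12 log2 in HCT116 (0.06 and 3.22 with genes that had a group at 0 set to their bound).

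Of the 56 genes higher in HCT116 only, 32 were in any of the lists used, 19 of them in an interferon list. The rest of the 56 were in no list. The other HCT116-only genes named here came from several lists with 1 or 2 members each. KRT17, a keratin of basal and stressed epithelia, had 0.587 and 0.371 CPM in SW480 CD44v6-OE against 0.553 and 1.14 CPM in SW480 parental, and 12.6 and 13.3 CPM in HCT116 CD44v6-OE against 0.227 and 0.272 CPM in HCT116 parental. The libraries of HCT116 CD44v6-OE were the only high ones (difference -6.53 ± 0.56 log2, adjusted p = 0.00027), and KRT17 was the 1 called of 18 keratins. As KRT17 has near-identical copies, its counts are uncertain. CFB, complement factor B, had 282 and 280 counts in HCT116 CD44v6-OE against 0 and 1 in HCT116 parental, a ratio of 551 with a 95% counting interval from 74.2 and no upper limit, and was at or under 6 counts in all 4 SW480 libraries. Its call held in 3 of the 8 fits that left out a library. SNAI2, the EMT transcription factor Slug, had 2.76 and 2.01 CPM in SW480 CD44v6-OE against 2.26 and 4.09 CPM in SW480 parental, and 2.41 and 2.68 CPM in HCT116 CD44v6-OE against 0.227 and 0.582 CPM in HCT116 parental. It was the 1 called of 7 EMT transcription factors tested (difference -3.07 ± 0.62 log2, adjusted p = 0.063), and the call held in 3 of the 8 fits that left out a library. ZEB1 was not called in either line or in the difference (-1.38 ± 0.45 log2, adjusted p = 0.29), with 8.08 and 7.24 CPM in SW480 CD44v6-OE against 9.11 and 7.74 CPM in SW480 parental, and 3.62 and 3.59 CPM in HCT116 CD44v6-OE against 0.925 and 2.12 CPM in HCT116 parental.

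EGR3 and KLF4 were the 2 called of 19 immediate early genes, both with the lower effect in SW480, against 0.366% of all genes. EGR3 had 9.14 and 7.89 CPM in SW480 CD44v6-OE against 12.6 and 11.2 CPM in SW480 parental, and 6.25 and 5.54 CPM in HCT116 CD44v6-OE against 1.34 and 1.98 CPM in HCT116 parental (difference -2.31 ± 0.33 log2, adjusted p = 0.011). KLF4, a factor of differentiated colon epithelium, had 16.6 and 9.77 CPM in SW480 CD44v6-OE against 14.1 and 12.3 CPM in SW480 parental, and 122 and 111 CPM in HCT116 CD44v6-OE against 42.2 and 28.2 CPM in HCT116 parental (difference -1.73 ± 0.36 log2, adjusted p = 0.092, held in 2 of the 8 fits that left out a library). The fit of all 12 libraries called 0 of the immediate early genes. Unlike EGR3, KLF4 was the lower one in SW480 parental. COL7A1, the collagen of anchoring fibrils, had 15.4 and 14.9 CPM in SW480 CD44v6-OE against 13.4 and 10.2 CPM in SW480 parental, and 10.2 and 10.0 CPM in HCT116 CD44v6-OE against 2.85 and 2.19 CPM in HCT116 parental (difference -1.63 ± 0.29 log2, adjusted p = 0.033, held in 3 of the 8). CEACAM1, an adhesion molecule of epithelia, had 11.8 and 9.14 CPM in SW480 CD44v6-OE against 5.76 and 3.31 CPM in SW480 parental, and 8.66 and 7.55 CPM in HCT116 CD44v6-OE against 1.02 and 0.931 CPM in HCT116 parental. Its libraries with CD44v6-OE were the higher ones in both lines (SW480 1.21 ± 0.28 log2, adjusted p = 0.0896, under the minimum size), and the call of the difference (-1.84 ± 0.41 log2, adjusted p = 0.088) held in 1 of the 8 fits that left out a library. IL15, a cytokine for NK and memory T cells, had 0.348 and 0.305 CPM in SW480 CD44v6-OE against 0.277 and 0.638 CPM in SW480 parental, and 2.12 and 2.1 CPM in HCT116 CD44v6-OE against 0.34 and 0.369 CPM in HCT116 parental, and its call (difference -3.07 ± 0.69 log2, adjusted p = 0.092) also held in 1 of the 8.

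GJB1 was the 1 gene lower in HCT116 only. It encodes connexin 32, a gap junction protein of glandular epithelia, on chromosome X from 70432661 to 70445366 (hg19). It had 304 and 275 CPM in SW480 CD44v6-OE against 286 and 233 CPM in SW480 parental. In HCT116 it had 0 counts in both CD44v6-OE libraries against 11 and 30 counts in the parental ones, at least 3.51-fold lower than 6 counts per library would allow. GJB1 was thus abundant in SW480 in all 4 libraries and scarce in HCT116 before CD44v6-OE (difference 7.44 ± 1.25 log2, adjusted p = 0.045, a size that depends on the prior count, with the call held in 5 of the 8 fits that left out a library). The HCT116 parental libraries held 0.208 and 0.582 CPM of it. SW480-defining genes stood there at medians of 0.0845% and 0.14% of their SW480 parental level, with upper quartiles of 0.278% and 0.325%. These genes were chosen at 6 counts or fewer in both HCT116 parental libraries, which caps their shares and leaves out GJB1. The shares are therefore no measure of background for GJB1, and whether its parental counts in HCT116 are more than background was not tested.

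Most SW480-only genes were lower in SW480 parental than in HCT116 parental cells. The 34 of 40 that were lower in SW480 parental than in HCT116 parental stood at a median of 14.6% of the HCT116 parental level in SW480 CD44v6-OE 1 and 12.3% in SW480 CD44v6-OE 2. The HCT116-defining genes described above stood at medians of 2.53% and 0.355% in these libraries. The 34 were called in these same libraries, so their higher share was set by the choice of genes and says nothing of its source. Of the 34, 6 belong to the HCT116-defining set themselves, among them CASC19, PLOD2, SCG2, PRSS12 and TLX3. For 33 of the 40 genes the first library was the higher one, and for all 40 both CD44v6-OE libraries stood above both parental ones. The latter held for 21.8% of all genes tested, and for the 40 it was nearly set by their being called in these libraries. Without SW480 CD44v6-OE 1, 12 of the 40 were still called, and 33 were without SW480 CD44v6-OE 2. Without HCT116 CD44v6-OE 1 or 2, 9 were. With the HCT116 share subtracted from the counts of SW480 CD44v6-OE, an alternative chosen after seeing the data, 31 were still called. That step removed only the median share of the HCT116-defining genes. Their upper quartile was 4.13% in SW480 CD44v6-OE 1 and 0.967% in SW480 CD44v6-OE 2. A gene with a share above the median keeps the rest, so the 31 are no test of the source of their counts.

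**Figure D3:**
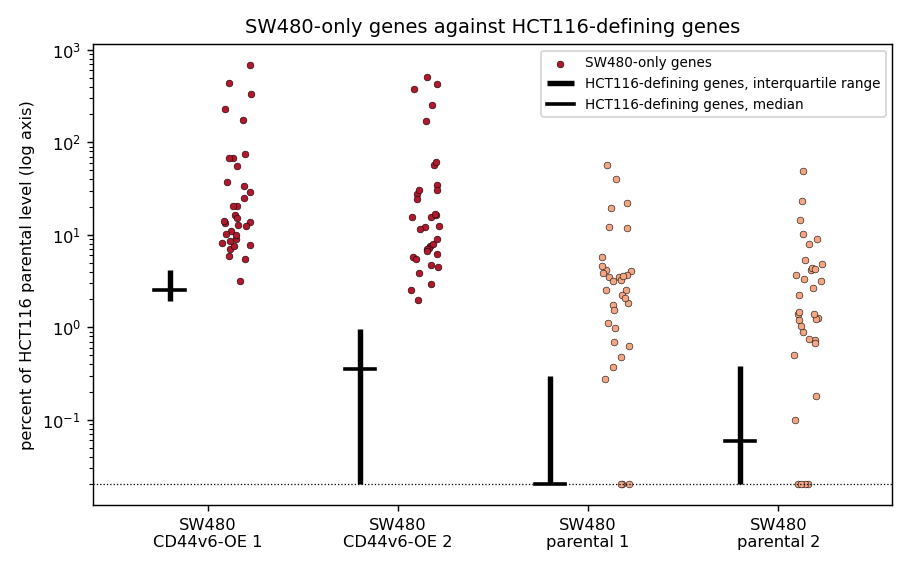
Level of the 34 SW480-only genes that were lower in SW480 parental (points, 1 per gene, chosen as called in these libraries) as a percentage of their HCT116 parental level on a log axis, in each SW480 library, beside the median and interquartile range of the 100 HCT116-defining genes (black). Values under 0.02% are drawn on the dotted line; all but 1 point in SW480 CD44v6-OE 1 lie above the upper end of the black bar, and the medians of the bars are 2.53% and 0.355% in SW480 CD44v6-OE 1 and 2.

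CASC19 and PLOD2 showed the largest positive differences as fitted. CASC19 is a long noncoding RNA, and PLOD2 hydroxylates lysines of collagen. CASC19 had 34 and 58 counts in SW480 CD44v6-OE against 0 in both SW480 parental libraries, at least 7.4-fold higher than 6 counts per parental library would allow, at 7.06% and 12.1% of its HCT116 parental level. PLOD2 had 46 and 28 counts in SW480 CD44v6-OE against 0 in both SW480 parental libraries, at least 5.95-fold higher, at 10.0% and 6.13% of its HCT116 parental level. In HCT116 neither was called, with 12.1 and 11.3 CPM in CD44v6-OE against 9.89 and 11.0 CPM in parental for CASC19, and 13.6 and 15.2 CPM in CD44v6-OE against 9.49 and 10.4 CPM in parental for PLOD2. SCG2, a secretory granule protein, had 86 and 40 counts in SW480 CD44v6-OE against 2 and 0 in SW480 parental, a ratio of 61.6 with a 95% counting interval of 10.7 to 2470. PRSS12, the protease neurotrypsin, had 72 and 42 counts in SW480 CD44v6-OE against 3 and 1 in SW480 parental, a ratio of 27.9 (7.37 to 236). SCG2 stood at 10.2% and 4.75% of its HCT116 parental level, and PRSS12 at 7.74% and 4.53%. All 4 belong to the HCT116-defining set, whose upper decile began at 7.62% in SW480 CD44v6-OE 1 and 2.85% in SW480 CD44v6-OE 2. In SW480 CD44v6-OE 1 CASC19 lay under that bound and PRSS12 close to it. The counts of these 4 genes in both SW480 CD44v6-OE libraries were thus small but above those of the parental ones, and their calls held in all 8 fits that left out a library.

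Other genes with a higher effect in SW480 lay closer to the share of the HCT116-defining genes, or were higher in SW480 CD44v6-OE 1. TLX3, a homeobox factor, had 16 and 10 counts in SW480 CD44v6-OE against 0 and 1 in SW480 parental, at 3.17% and 1.99% of its HCT116 parental level, and its call held in 4 of the 8 fits that left out a library. EPN3, an endocytic adaptor of epithelia, had 36 and 13 counts in SW480 CD44v6-OE against 0 and 5 in SW480 parental, at 1.47% and 0.534% of its HCT116 parental level, and is itself one of the HCT116-defining genes. EPN3 was called in the difference but not within SW480 (3.21 ± 0.76 log2, adjusted p = 0.119), and the call held in 3 of the 8 fits. SH3BGRL, a small thioredoxin-like protein, had 6.19 and 1.7 CPM in SW480 CD44v6-OE against 0.101 and 0.16 CPM in SW480 parental, at 29.1% and 8.0% of its HCT116 parental level, and the call (difference 4.80 ± 0.90 log2, adjusted p = 0.092) held in 2 of the 8 fits. FABP6, the ileal bile acid-binding protein, had 52 and 18 counts in SW480 CD44v6-OE against 4 and 2 in SW480 parental, at 20.4% and 7.1%. It had 3.16 and 2.38 CPM in HCT116 CD44v6-OE against 6.36 and 4.7 CPM in HCT116 parental (difference 4.45 ± 0.80 log2, adjusted p = 0.035, held in 4 of the 8 fits). How far reads of HCT116 entered the counts of these genes was not tested gene by gene.

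AP1M2 was the most precisely measured SW480-only gene among those named. It encodes the epithelium-specific subunit of the AP-1B adaptor, which sorts proteins to the basolateral membrane. It had 17.3 and 15.8 CPM in SW480 CD44v6-OE against 5.18 and 5.33 CPM in SW480 parental, and 101 and 108 CPM in HCT116 CD44v6-OE against 127 and 126 CPM in HCT116 parental. SW480 CD44v6-OE thus stood at 13.6% and 12.5% of the HCT116 parental level, both CD44v6-OE libraries alike (difference 1.94 ± 0.17 log2, adjusted p = 0.00027). RBM47, an RNA-binding protein that takes part in epithelial splicing, had 7.62 and 4.23 CPM in SW480 CD44v6-OE against 1.69 and 1.98 CPM in SW480 parental, and 11.6 and 11.8 CPM in HCT116 CD44v6-OE against 13.9 and 13.6 CPM in HCT116 parental (difference 1.93 ± 0.37 log2, adjusted p = 0.047), and its call held in 3 of the 8 fits that left out a library. HEYL, a Notch target, had 10.0 and 9.57 CPM in SW480 CD44v6-OE against 4.05 and 3.53 CPM in SW480 parental, and 24.5 and 23.6 CPM in HCT116 CD44v6-OE against 26.6 and 28.2 CPM in HCT116 parental (difference 1.56 ± 0.22 log2, adjusted p = 0.0092). Its SW480 effect of 1.37 ± 0.16 log2 was under the minimum size, so HEYL is not among the SW480-only genes. RBM47 stood at 55.4% and 30.7% and HEYL at 36.5% and 34.9% of the HCT116 parental level in the SW480 CD44v6-OE libraries. AP1M2 and EPN3 were the 2 called of 45 epithelial identity and junction genes (1 with the HCT116 share subtracted or without SW480 CD44v6-OE 1, HCT116 parental 1 or either HCT116 CD44v6-OE library, 3 without SW480 parental 2, and 6 without SW480 CD44v6-OE 2), RBM47 the 1 of 15 RNA-binding proteins and HEYL the 1 of 18 Notch targets.

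In 11 of the 40 genes both SW480 CD44v6-OE libraries stood above both HCT116 parental ones. GPX2, the gastrointestinal glutathione peroxidase and a target of NRF2 and Wnt, had 24.4 and 24.3 CPM in SW480 CD44v6-OE against 1.91 and 2.51 CPM in SW480 parental. In HCT116 it had 2 and 2 counts in CD44v6-OE against 6 and 10 in parental, a ratio of 0.245 with a 95% counting interval of 0.0254 to 1.23. The SW480 groups were far apart, and the difference was 5.41 ± 0.63 log2 (adjusted p = 0.003), the only call among 26 NRF2 and glutathione genes. COL4A1, a chain of basement membrane collagen, had 4.82 and 5.02 CPM in SW480 CD44v6-OE against 0.201 and 0.16 CPM in SW480 parental, and 0.0758 and 0.0558 CPM in HCT116 CD44v6-OE against 0.132 and 0.097 CPM in HCT116 parental (difference 5.54 ± 0.74 log2, adjusted p = 0.0076). Its parental levels were low in both lines. PCDH19, a protocadherin, had 3.41 and 2.94 CPM in SW480 CD44v6-OE against 0.151 and 0.0798 CPM in SW480 parental, and 0.587 and 0.632 CPM in HCT116 CD44v6-OE against 1.06 and 0.504 CPM in HCT116 parental (difference 5.15 ± 0.70 log2, adjusted p = 0.0085). The calls of GPX2, COL4A1 and PCDH19 held in all 8 fits that left out a library.

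CHGA encodes chromogranin A, a marker of enteroendocrine cells, and was not detected in HCT116. It had 12.1 and 8.59 CPM in SW480 CD44v6-OE against 0.654 and 0.678 CPM in SW480 parental, a SW480 effect of 3.95 ± 0.34 log2 (adjusted p = 0.0011). In HCT116 it had 0 counts in both CD44v6-OE libraries against 2 and 1 in parental, so that its difference (7.57 ± 1.60 log2, adjusted p = 0.086) has no interpretable size and its call held in 3 of the 8 fits. SLC9A3, the sodium-proton exchanger of the brush border, had 23.8 and 16.7 CPM in SW480 CD44v6-OE against 8.73 and 7.58 CPM in SW480 parental, and 0.853 and 0.595 CPM in HCT116 CD44v6-OE against 0.83 and 1.16 CPM in HCT116 parental (difference 1.77 ± 0.40 log2, adjusted p = 0.094, held in 3 of the 8). The SW480 effect of SLC9A3 (1.31 ± 0.25 log2) was under the minimum size, so SLC9A3 is not among the SW480-only genes. CHGA was the 1 called of 10 secretory lineage genes and SLC9A3 the 1 of 16 brush border genes. PDE10A, a cyclic nucleotide phosphodiesterase, was the 1 gene lower in SW480 only, with 0.261 and 0.131 CPM in SW480 CD44v6-OE against 1.21 and 1.86 CPM in SW480 parental, and 0.265 and 0.428 CPM in HCT116 CD44v6-OE against 0.189 and 0.155 CPM in HCT116 parental (adjusted p of the difference 0.0649).

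**Figure D4:**
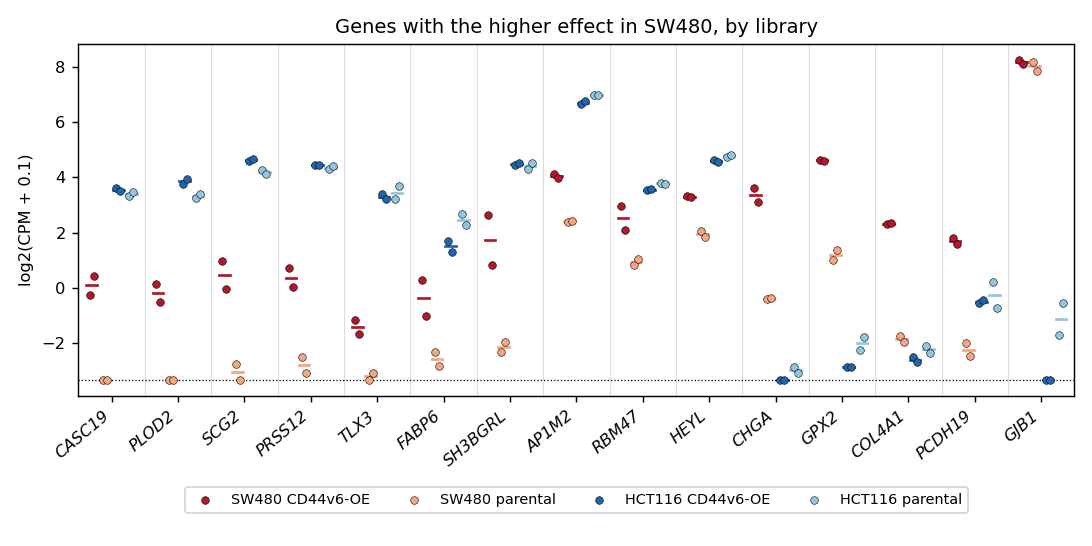
Level of 15 named genes with a higher effect in SW480, as log2 of CPM plus 0.1, with 1 point per library and a bar at the mean of each group; the dotted line marks 0 CPM. From CASC19 to HEYL both HCT116 groups lie above the SW480 groups, and for CHGA, GPX2, COL4A1 and PCDH19 SW480 CD44v6-OE lies highest, as at 24.4 and 24.3 CPM for GPX2.

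Only 4 genes moved in opposite directions with an adjusted p under 0.1 in each line, and 35 of the 122 did so under a looser description (opposite signs, over 0.5 log2 each). GRIN2B, a subunit of the NMDA glutamate receptor, had 1.2 and 0.96 CPM in SW480 CD44v6-OE against 0.377 and 0.279 CPM in SW480 parental, and 5.78 and 6.06 CPM in HCT116 CD44v6-OE against 12.0 and 15.5 CPM in HCT116 parental. It rose by 1.72 ± 0.32 log2 in SW480 (adjusted p = 0.046) and fell by 1.22 on the log2 scale in HCT116 (SE 0.23, adjusted p = 0.03), so that the lines lay closer together with CD44v6-OE than as parental cells. SW480 CD44v6-OE stood at 8.67% and 6.96% of its HCT116 parental level. RASGRP3, an activator of Ras and Rap, moved the other way, with 7.49 and 7.76 CPM in SW480 CD44v6-OE against 20.7 and 13.6 CPM in SW480 parental, and 0.606 and 0.818 CPM in HCT116 CD44v6-OE against 0.113 and 0.175 CPM in HCT116 parental. It fell by 1.17 on the log2 scale in SW480 (SE 0.25, adjusted p = 0.073) and rose by 2.29 ± 0.41 log2 in HCT116 (adjusted p = 0.019).

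The other two encode histones of the cluster on chromosome 6. H2BC5 had 14.97 and 20.06 CPM in SW480 CD44v6-OE against 27.1 and 36.2 CPM in SW480 parental, and 9.21 and 7.64 CPM in HCT116 CD44v6-OE against 3.68 and 3.26 CPM in HCT116 parental (difference -2.13 ± 0.30 log2, adjusted p = 0.0092). H1-2, a linker histone, had 117 and 177 CPM in SW480 CD44v6-OE against 298 and 253 CPM in SW480 parental, and 24.6 and 22.1 CPM in HCT116 CD44v6-OE against 13.4 and 13.7 CPM in HCT116 parental (difference -1.70 ± 0.26 log2, adjusted p = 0.015). As histone genes have near-identical copies, their counts are uncertain. In both genes, as in GRIN2B and RASGRP3, the line with the higher parental level went down and the other went up. The number of such genes depended on the libraries kept. Leaving out either HCT116 CD44v6-OE library or SW480 CD44v6-OE 1 left 0 genes, leaving out either HCT116 parental library left 1, and leaving out SW480 parental 1 or 2 gave 21 or 59, and leaving out SW480 CD44v6-OE 2 gave 5.

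Most gene lists held no member called in the difference, and of the 40 SW480-only genes 6 were in any list. The cell cycle lists leaned the other way from the interferon lists. Of 32 S phase genes, 28 had a difference above 0, with medians of 0.01 log2 in SW480 and -0.31 log2 in HCT116, and both HCT116 CD44v6-OE libraries lay below both parental ones for 27 of them, against 8 in SW480. Over all genes tested this held for 23.8% in HCT116 and 15.7% in SW480. Of 30 G2M and mitosis genes, 24 had a difference above 0, with medians of -0.00 log2 in SW480 and -0.32 log2 in HCT116. None was called in either list, and over all genes tested 9662 of 18844 had a difference above 0. Cholesterol and fatty acid synthesis genes lay below 0 in 23 of 29, with medians of -0.27 log2 in SW480 and 0.11 log2 in HCT116 and no call. Epithelial identity and junction genes lay above 0 in 31 of 45, with medians of 0.18 log2 in SW480 and -0.01 log2 in HCT116 and 2 calls. Mesenchymal and matrix genes (33 tested), integrins (17), hyaluronan and CD44 partners (17), YAP/TAZ targets (24) and p53 targets (25) had 0 calls and median differences of -0.20, -0.19, -0.05, -0.14 and 0.17 log2 in that order.

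Of the genes picked for report because the study discusses them, those below showed no called difference between the lines, while RBM47, which the study also discusses, was called as described above. ESRP1, the epithelial splicing regulator, had 48.2 and 45.1 CPM in SW480 CD44v6-OE against 37.2 and 30.2 CPM in SW480 parental, and 90.4 and 93.9 CPM in HCT116 CD44v6-OE against 121 and 105 CPM in HCT116 parental, a separation in opposite directions that did not pass the test (difference 0.77 ± 0.19 log2, adjusted p = 0.14). CDH1, E-cadherin, overlapped between groups in both lines, with 5.26 and 15.6 CPM in SW480 CD44v6-OE against 6.41 and 16.9 CPM in SW480 parental, and 50.0 and 48.5 CPM in HCT116 CD44v6-OE against 64.9 and 46.4 CPM in HCT116 parental. VIM (-0.84 ± 0.32 log2, adjusted p = 0.38), SPARC (2.02 ± 0.83, 0.41), EPCAM (0.26 ± 0.19, 0.7), MAL2 (-0.48 ± 0.19, 0.39), IL32 (-0.31 ± 0.99, 0.96) and CSF2 (-1.79 ± 0.84, 0.47) did not differ by a call either. VIM, an intermediate filament of mesenchymal cells, showed the widest parental gap of these genes, at 1080 and 723 CPM in SW480 parental against 4.57 and 6.34 CPM in HCT116 parental.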

How the data were processed

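Gene counts of 12 poly(A) RNA libraries were deposited as counts. According to the submitters' processing notes and the file headers, the authors aligned paired reads to hg19 with STAR 2.7.9a and counted them per gene with featureCounts 2.0.3 on GENCODE annotation 35 lifted to hg19. Counts of 4 and 6 were more frequent than 3 and 5, as when each read of a pair is counted. A second deposited table held log2-scale variance-stabilized values, made by the authors with DESeq2 1.30.1, and was used only for gene symbols. No column of per-sample values was left unused (0).

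From the counts of the 8 parental and CD44v6-OE libraries, edgeR 4.0.16 (R 4.3.3) was run with filterByExpr, TMM scaling, 1 coefficient per group and robust quasi-likelihood tests. The difference between the lines was the contrast tested, and p-values were adjusted over all 18844 genes. A gene was called at adjusted p under 0.1 and absolute log2 over 1.5. CPM were computed after TMM scaling, and log2 CPM used a prior count of 2. Intervals of ratios were exact binomial at 95% over read pairs and cover counting error only, as do the bounds at 6 counts. Read pairs were not marked by molecular identifiers.

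Named genes were the 10 largest called differences in each direction whose log2 CPM averaged 1 or more and whose library differences did not overlap, genes moving in opposite directions, up to 3 called members per gene list and direction, and genes the study names, 1 of which is not reported here. The members and the 50 gene lists were chosen with earlier results of these data known. Alternatives were no filter, a minimum mean count of 50, RLE size factors, robust=FALSE, the replicate number as a block, DESeq2 1.42.0, all 12 libraries, each library left out, adjusted p under 0.05, no minimum difference, halved counts and, chosen after seeing the data, HCT116 share subtracted. That last one removed the median share of the 100 HCT116-defining genes, times the HCT116 parental level, from each SW480 CD44v6-OE library.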

Additional observations from a re-analysis of the deposited data

Results flagged for a closer look

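The CD44v6-OE effect differed between the lines for 43 of the named genes, by edgeR's test of the difference itself at an adjusted p under 0.1 and over 1.5 log2. The SW480 effect minus the HCT116 effect, in log2, was positive for CASC19 (8.46), PLOD2 (7.78), CHGA (7.57), GJB1 (7.44), COL4A1 (5.54), GPX2 (5.41), SCG2 (5.35), PCDH19 (5.15), SH3BGRL (4.80), PRSS12 (4.62), TLX3 (4.55), FABP6 (4.45), EPN3 (3.81), GRIN2B (2.94), AP1M2 (1.94), RBM47 (1.93), SLC9A3 (1.77) and HEYL (1.56). It was negative for CFB (-12.96), MX2 (-10.31), KRT17 (-6.53), IFI27 (-6.53), OAS2 (-6.20), BST2 (-5.58), OAS1 (-5.54), APOL3 (-5.53), IFIT3 (-5.26), APOL1 (-4.75), APOL6 (-4.42), IFI6 (-4.40), CXCL1 (-4.19), BIRC3 (-3.85), RASGRP3 (-3.46), IL15 (-3.07), SNAI2 (-3.07), EGR3 (-2.31), MAP3K8 (-2.16), H2BC5 (-2.13), CEACAM1 (-1.84), KLF4 (-1.73), H1-2 (-1.70), COL7A1 (-1.63) and PSMB10 (-1.57). The values of CASC19, PLOD2, GJB1, CHGA, MX2 and CFB have a group at 0 counts and depend on the prior count.

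The SW480 CD44s-OE libraries, which enter the results above only in the fit of all 12 libraries, also held counts of genes that define HCT116. The 100 HCT116-defining genes stood at a median of 1.32% and 1.64% of their HCT116 parental level in SW480 CD44s-OE 1 and 2, against 0% and 0.0584% in SW480 parental 1 and 2. The source of these counts was not tested.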

How the results depend on the processing

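The calls moved by over 1.5 times under some choices, whose cause was not tested except where fewer or more genes were tested or a threshold changed. With no filter on low counts, the difference was called higher for 184 genes and lower for 147, with 146 in SW480 only, 113 in HCT116 only, 17 in opposite directions, 343 within SW480 and 311 within HCT116. DESeq2 called 117 higher and 120 lower, with 97 in SW480 only, 94 in HCT116 only, 10 opposite and 223 within SW480. The fit of all 12 libraries called 32 and 29, with 25, 22 and 1. At an adjusted p under 0.05, 30 were higher, with 23 in SW480 only, 1 opposite and 70 within SW480. Without a minimum difference there were 97 higher and 114 lower, with 84 and 102 in one line only, and 283 within SW480 and 386 within HCT116. A mean count of at least 50 left 92 within SW480. RLE size factors, robust=FALSE, halved counts and, added after seeing the data, HCT116 share subtracted kept each of these 7 counts within 1.5 times.

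Leaving out 1 library at a time gave 11 to 187 genes higher, 32 to 201 lower, 9 to 161 in SW480 only, 30 to 107 in HCT116 only, 0 to 59 in opposite directions, 20 to 400 within SW480 (20 without SW480 CD44v6-OE 1) and 94 to 325 within HCT116. Of the 43 named genes called in the difference, 25 to 38 kept the call in these fits, 21 in the fit of all 12 libraries and 43 with DESeq2, and none of the 43 changed direction under any alternative.

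The labels do not say whether libraries with the same replicate number were handled together. Deviations of same-numbered libraries correlated at -0.094 to 0.25 between groups (0.0554 between the HCT116 groups and 0.112 between the SW480 groups). The highest value was between HCT116 CD44v6-OE and SW480 parental, and these correlations cannot settle the question. With the replicate block, 47 genes were called higher and 69 lower, 37 in SW480 only, 61 in HCT116 only, 3 opposite, 115 within SW480 and 163 within HCT116.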

Other observations

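Histone genes of the replication-dependent clusters were looked at after H2BC5 and H1-2 had been seen, so their values are given without a test. Of 41 tested, 35 of them on chromosome 6, 32 had a difference below 0. Of the 41, 4 were called lower in SW480 (H2BC5, H2AC6, H1-2 and H2BC12) and 0 higher, against 0.366% and 0.281% of all genes. The median effect was -0.64 log2 in SW480 and 0.21 log2 in HCT116, and both SW480 CD44v6-OE libraries lay below both parental ones for 26 of the 41, as for 15.7% of all genes tested. As these transcripts mostly lack a poly(A) tail and the libraries were made from polyadenylated RNA, the counts hold the polyadenylated part only.

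The median difference over the genes of a chromosome ran from -0.1 log2 on chromosome 4 to 0.099 log2 on chromosome 17. Chromosome 17 stood at a median of 0.115 log2 in SW480 and -0.018 log2 in HCT116, and chromosome 13 at -0.101 log2 in SW480 and 0.022 log2 in HCT116. On chromosome 6, 13 of 967 tested genes were called, 12 of them with the lower effect in SW480. Over all chromosomes, 122 of 18844 tested genes were called, 69 of them with the lower effect in SW480. The called histone genes named above lie on chromosome 6 and are among the 12. Whether chromosome 6 held more calls than other chromosomes was not tested.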
